A study of Homo sapiens with 19 samples.

Results

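ECT2, RACGAP1, ANLN, PRC1 and CIT encode proteins that build the cleavage furrow and the midbody when a dividing cell splits. The 5 genes and their annotated introns were read in the junction tables of 19 libraries: of 201 annotated introns of these genes (361515 in the whole annotation), 182 had reads, and of 27 cassette exon candidates (exons with both inclusion junctions and a skipping junction annotated) 12 passed a minimum of 20 reads per library on average and a pooled inclusion between 2% and 98%, out of 6548 such exons in all. Values are spliced reads per junction, summed per gene or turned into inclusion, which is the percentage of inclusion plus skipping reads that included the exon. The 93 nt exon of ECT2 is described first.

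The libraries came from 3 human cell lines and were depleted of ribosomal RNA. The A375 melanoma line gave total, nuclear and cytoplasmic RNA, and HEK293 (embryonic kidney) and HUES66 (embryonic stem cells) gave wild-type total RNA, each in 1 library. The other 14 libraries were HUES66 cells given doxycycline at 1 ug/ml for 24, 48 or 96 hr, with Cas13d named in the series title as the knockdown enzyme: control (3 libraries), RBFOX2 total knockdown (total KD, 3), N-short KD (4) and N-long KD (4). RBFOX2 is a splicing regulator. The labels call N-short KD and N-long KD isoform knockdowns and do not say whether libraries came from separate cultures, so p-values measure the spread between these libraries, which may be technical. At 24 hr the libraries formed 2 sets, replicate 1 (no control) and replicate 2 (no total KD). The wild-type HUES66 library carries the control name in its description and was used as a control only as an alternative.

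Levels are given in CPM, spliced reads per 1000000 spliced reads of the library. Spliced reads per library ranged from 6499183 to 27937149 over the 19 libraries. RBFOX2 was at 119 to 126 CPM in the controls, 48.2 to 78.7 in total KD, 72.7 to 87.6 under N-long KD and 107 to 120 under N-short KD. In the edgeR quasi-likelihood fit its log2 fold change against control was -0.82 for total KD (SE 0.08, adjusted p = 8.61e-09), -0.57 for N-long KD (adjusted p = 2.73e-05) and -0.06 for N-short KD (adjusted p = 0.999). Of 7 pluripotency genes measured, 7 had reads in all 14 HUES66 libraries (summed 2973 to 4598 CPM), against 9.03 in A375 total RNA. A375 total RNA had reads on 5 of 7 melanocyte genes, summed 141 CPM against 36.6 to 71.9 in the 14 HUES66 libraries.

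ECT2 is a guanine nucleotide exchange factor that switches on RHOA at the cell equator. It is held there by RACGAP1, a GTPase-activating protein of the centralspindlin complex. PRC1 bundles the antiparallel microtubules of the central spindle, ANLN (anillin) is a scaffold that links RHOA, actin, myosin and septins in the contractile ring, and CIT (citron kinase) acts at the midbody. RBFOX proteins bind the RNA word GCAUG in introns and exons and are known to promote or repress exons depending on position.

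The sequences of 4 alternative stretches are shown because they are the alternatives that carry most of the differences described here. The 4 sequences were read from GENCODE 29 transcripts (GRCh38), 5′ to 3′ on the strand of the gene. The alternative stretch is in capitals, with 20 nt of the neighbouring exon on each side in lower case. For CIT the lower-case bases after the stretch continue the same exon. The ECT2 exon lies at chr3:172755483-172755575 on the plus strand, the ANLN exon at chr7:36428307-36428360 on the plus strand, the PRC1 exon at chr15:90969079-90969120 on the minus strand, and the CIT stretch between alternative acceptors at chr12:119718817-119718861 on the minus strand.
ECT2 93 nt: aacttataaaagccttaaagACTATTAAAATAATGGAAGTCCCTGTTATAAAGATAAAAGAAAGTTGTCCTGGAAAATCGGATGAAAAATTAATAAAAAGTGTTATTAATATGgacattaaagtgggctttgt
ANLN 54 nt: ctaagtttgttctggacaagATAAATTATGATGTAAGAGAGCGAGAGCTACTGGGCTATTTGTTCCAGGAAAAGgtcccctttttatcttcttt
PRC1 42 nt: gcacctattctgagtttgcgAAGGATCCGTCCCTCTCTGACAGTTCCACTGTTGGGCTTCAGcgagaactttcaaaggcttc
CIT 45 nt: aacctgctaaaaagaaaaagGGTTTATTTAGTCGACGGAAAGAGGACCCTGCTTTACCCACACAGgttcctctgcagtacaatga
The 4 stretches have lengths divisible by 3. Of the 12 tested exons, the 267 nt ECT2 exon holds GCATG on the strand of the gene, and the 203 nt RACGAP1 exon holds GCATG on both strands and TGCATG on the opposite strand. The other 10, among them the 93 nt ECT2, 54 nt ANLN and 42 nt PRC1 exons, hold neither word on either strand. Among all 6548 tested exons 9.88% hold GCATG on the strand of the gene and 2.69% hold TGCATG, which contains GCATG. Introns beside the exons were not analysed here.

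Inclusion of the 93 nt ECT2 exon fell in total KD and N-long KD, to levels below the controls. In the controls it was 93.2% (24 hr replicate 2), 87.4% (48 hr) and 88.7% (96 hr). In total KD it was 66% (24 hr replicate 1), 48.5% (48 hr) and 60.4% (96 hr), and no total KD library reached a control value. For N-long KD it was 81.3% and 79.6% at 24 hr, 61.0% at 48 hr and 79.5% at 96 hr, below every control and above total KD in each set that held both. For N-short KD it was 88.7% and 89.4% at 24 hr, 77.7% at 48 hr and 89.9% at 96 hr, so that 3 of the 4 libraries overlapped the controls. Each of the 14 values rests on 159 to 257 reads.

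**Figure D1:**
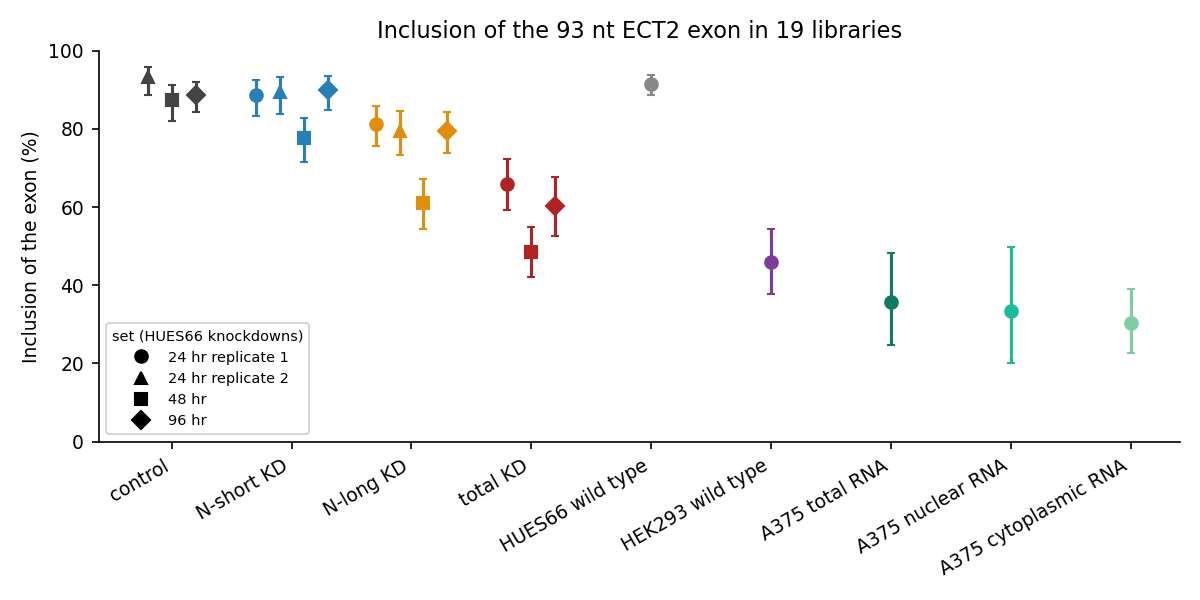
Inclusion of the 93 nt ECT2 exon in percent (vertical axis) in the 19 libraries, grouped by condition (horizontal axis); points are libraries, shapes mark library sets, bars are 95% Wilson intervals of counting error. The 3 total KD libraries lie between 48.5% and 66%, below the controls at 87.4% to 93.2%, and HEK293 and A375 lie at or below 45.9%.

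Within library sets, the difference of total KD from control was -33.6 percentage points (SD 7.45, n = 2 sets), a log2 odds ratio of -2.65 (SE 0.21, edgeR quasi-likelihood test, adjusted p = 2.13e-14). The difference of N-long KD from control was -16.4 points (SD 8.94, n = 3 sets, lower in 3 of 3), with an edgeR log2 odds ratio of -1.63 (SE 0.21, adjusted p = 2.94e-07). Both differences were larger than the spread between sets. For N-short KD it was -4.08 points (SD 5.45, n = 3 sets), lower in 2 of 3 sets, and it did not pass (edgeR log2 odds ratio -0.56, SE 0.24, unadjusted p = 0.0210, adjusted p = 1.00). That odds ratio was -0.28 without the 48 hr control library and -0.86 without the 96 hr control library. The groups were also compared with each other. N-long KD differed from N-short KD by -11.1 points (SD 3.96, n = 4 sets, lower in 4 of 4), with a log2 odds ratio of -1.07 (SE 0.18, edgeR adjusted p = 2.14e-04). Total KD differed from N-long KD by -15.7 points (SD 3.35, n = 3 sets, lower in 3 of 3), with a log2 odds ratio of -1.02 (SE 0.17, edgeR adjusted p = 1.22e-04). The comparisons share libraries and are not independent of each other. With limma on log2 ratios of the same reads the adjusted p for total KD against control was 0.00461, whereas N-long KD against control gave an adjusted p of 0.128, N-long KD against N-short KD 0.428, and total KD against N-long KD 0.489.

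In the authors' deposited table, the same exon had a control minus knockdown inclusion difference of 0.263, 0.4 and 0.282 in total KD at 24, 48 and 96 hr, with adjusted p-values of 2.13e-09, 5.28e-11 and 5.65e-05. Here no 24 hr library set holds both a control and total KD, so the 24 hr value has no counterpart among the within-set differences. In the authors' deposited table for N-long KD the difference was 0.131 at 24 hr (adjusted p = 0.00403), 0.28 at 48 hr (adjusted p = 7.13e-05) and 0.091 at 96 hr (adjusted p = 0.873). In the authors' deposited table for N-short KD it was 0.036, 0.103 and -0.014, with adjusted p-values of 0.826 or more. At an adjusted p under 0.05 and a difference of at least 0.1, it was the 1 event called among the 48 to 57 events listed for the 5 genes in each of the authors' deposited tables for total KD at 24, 48 and 96 hr and N-long KD at 24 and 48 hr. No event of the 5 genes was called in the other 4 authors' deposited tables. Over all events the called shares in the authors' deposited tables were 0.0518%, 0.118% and 0.0837% for total KD at 24, 48 and 96 hr, 0.00888%, 0.00444% and 0.00218% for N-short KD, and 0.00699%, 0.0266% and 0.0211% for N-long KD.

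None of the other 11 tested exons passed in any of the 5 comparisons between knockdown groups. The number of members called was 1 of 12 exons for total KD against control, beside 1.37% of all exons (90 exons; 41 with total KD of 48 hr left out, 53 with the 96 hr control left out), and 0 of 12 for N-short KD against control, beside 0.0153% (edgeR; 1 member exon of 12 had an unadjusted p under 0.05, and limma also called 0). It was 1 of 12 for N-long KD against control, beside 0.58% of all exons, 1 of 12 for N-long KD against N-short KD, beside 0.428%, and 1 of 12 for total KD against N-long KD, beside 0.519%. The 11 others had log2 odds ratios of -0.62 to 0.95 in total KD against control, with adjusted p-values of 0.828 or more. For N-long KD against control the range was -0.33 to 1.78. The highest of these belonged to the 74 nt RACGAP1 exon, which had a mean of 21.6 reads per library and 0% to 19.2% inclusion. Its value of 1.78 was 0.85 with the 96 hr control left out and 2.65 with N-long KD of 96 hr left out, and it did not pass in any of the 7 fits that leave out a library.

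**Figure D2:**
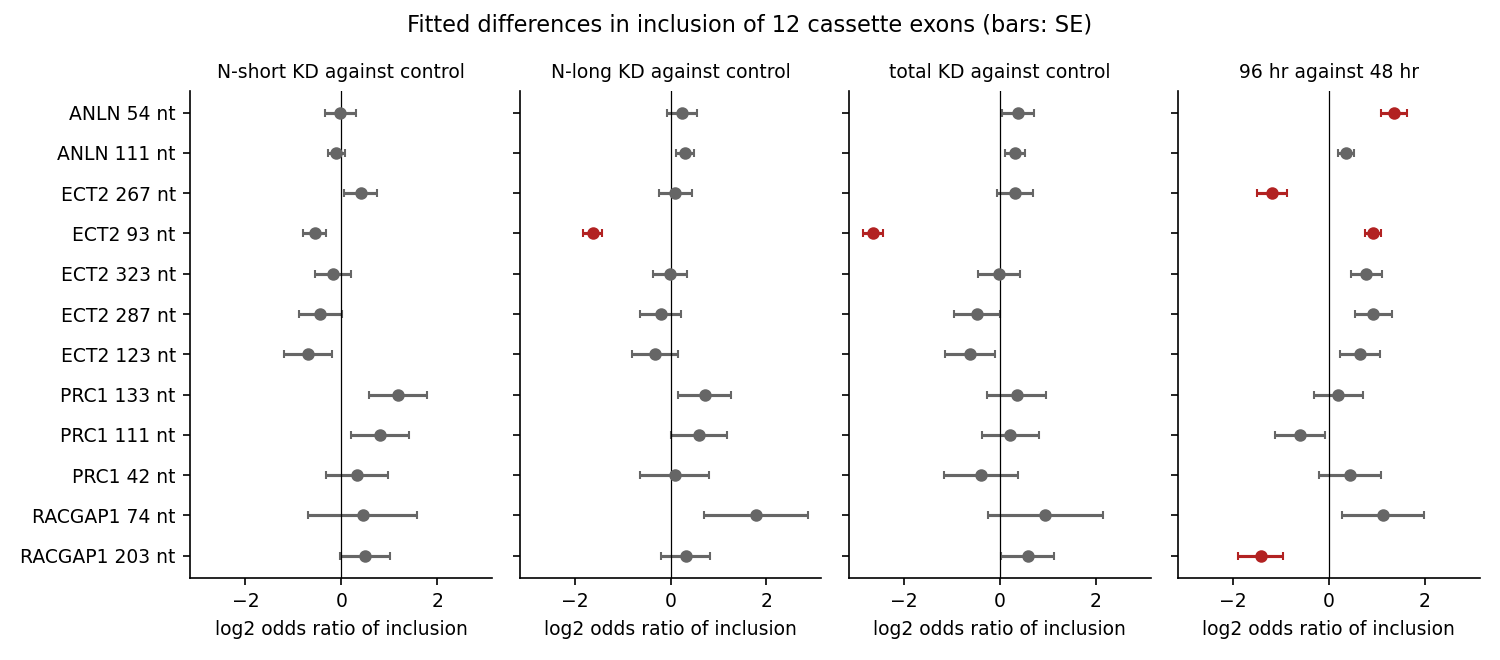
Fitted log2 odds ratios of inclusion (horizontal axis) for the 12 tested exons (vertical axis) in 4 comparisons, with SE bars; red marks an adjusted p under 0.05. The 93 nt ECT2 exon is the one red point in the total KD and N-long KD panels (-2.65 and -1.63), and 4 exons are red in the comparison of 96 hr with 48 hr.

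Over the 14 libraries, the 5 exons of other genes whose inclusion was most like that of the ECT2 exon lay in EPB41 (63 nt, Pearson r = 0.93), MSI1 (57 nt, r = 0.93), GPATCH4 (74 nt, r = 0.87), EPB41L1 (411 nt, r = 0.87) and SUN1 (99 nt, r = 0.87), out of 4876 exons with at least 20 reads in every library. The libraries share knockdown groups and sets, so these are descriptions. EPB41 encodes a membrane skeleton protein and MSI1 an RNA-binding protein. The EPB41 exon was included in 13.0% to 35.1% of reads in total KD, 35.9% to 58.7% under N-long KD, 62.7% to 80.3% under N-short KD and 65.8% to 83.3% in the controls. A high r does not mean a change of like size: the GPATCH4 exon was at 94.5% to 96.5% in total KD and 97.6% to 100% in the controls.

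At 96 hr against 48 hr, 4 of the 12 exons passed, beside 17.2% of all exons: the 93 nt ECT2 exon, the 54 nt ANLN exon, the 267 nt ECT2 exon and the 203 nt RACGAP1 exon. Each of these times is 1 library set, so time and set cannot be told apart. The p-values of this comparison do not measure the spread between sets of the same time. The 93 nt ECT2 exon rose by 10.99 points (SD 7.13, n = 4 groups; edgeR log2 odds ratio 0.91, SE 0.17, adjusted p = 4.44e-05). The difference was 1.34 points in the control, 11.9 in total KD, 18.5 for N-long KD and 12.2 for N-short KD, and whether knockdown and control differ in it was not tested. The 48 hr library had the lowest inclusion of its group in all 4 groups.

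The 54 nt ANLN exon rose between the 2 times in every group. At 48 hr its inclusion was 12.2% in the control, 16.3% in total KD, 12.2% for N-long KD and 9.09% for N-short KD, and at 96 hr it was 26.5%, 25%, 28.0% and 26.8% in the same order, with no overlap between the times. The difference was 14.1 points (SD 3.90, n = 4 groups), a log2 odds ratio of 1.35 (SE 0.27, edgeR adjusted p = 2.09e-04). The 24 hr libraries lay on both sides, at 24.4% to 34.2% in replicate 1 and 10.7% to 19.7% in replicate 2, so the level did not follow time in one direction. The labels put the 24 hr replicates in different library series, and the 48 and 96 hr libraries in 1 series.

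The 267 nt ECT2 exon fell from between 12.1% and 14.1% at 48 hr to between 5.59% and 6.67% at 96 hr, a difference of -7.04 points (SD 0.40, n = 4 groups; edgeR log2 odds ratio -1.19, adjusted p = 0.00349). The 24 hr libraries were at 6.45% to 10.5%, below every 48 hr library, so the level did not follow time in one direction. The junctions of this exon were unequal over the 14 libraries, 203 reads into the exon and 90 out of it, and inclusion uses their mean. The 203 nt RACGAP1 exon fell in 3 of 4 groups, from 96.6% to 99.3% at 48 hr to 90.2% to 92.5% at 96 hr, and was at 96.4% and 98.2% for N-long KD (edgeR log2 odds ratio -1.42, SE 0.47, adjusted p = 0.0286), and it rests on 1 to 12 skipping reads per library at these times. Leaving out single libraries took its adjusted p to between 0.00158 and 0.215; the call was lost without the 48 hr control (0.0674) or N-short KD library (0.145), and without the 96 hr control (0.0719), total KD (0.0884) or N-short KD library (0.215). At 24 hr the 203 nt RACGAP1 exon was at 90.1% to 98.9%. The 111 nt ANLN exon was at 71.6% to 78.7% at 48 hr and 75% to 86.1% at 96 hr and did not pass (edgeR adjusted p = 0.138).

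**Figure D3:**
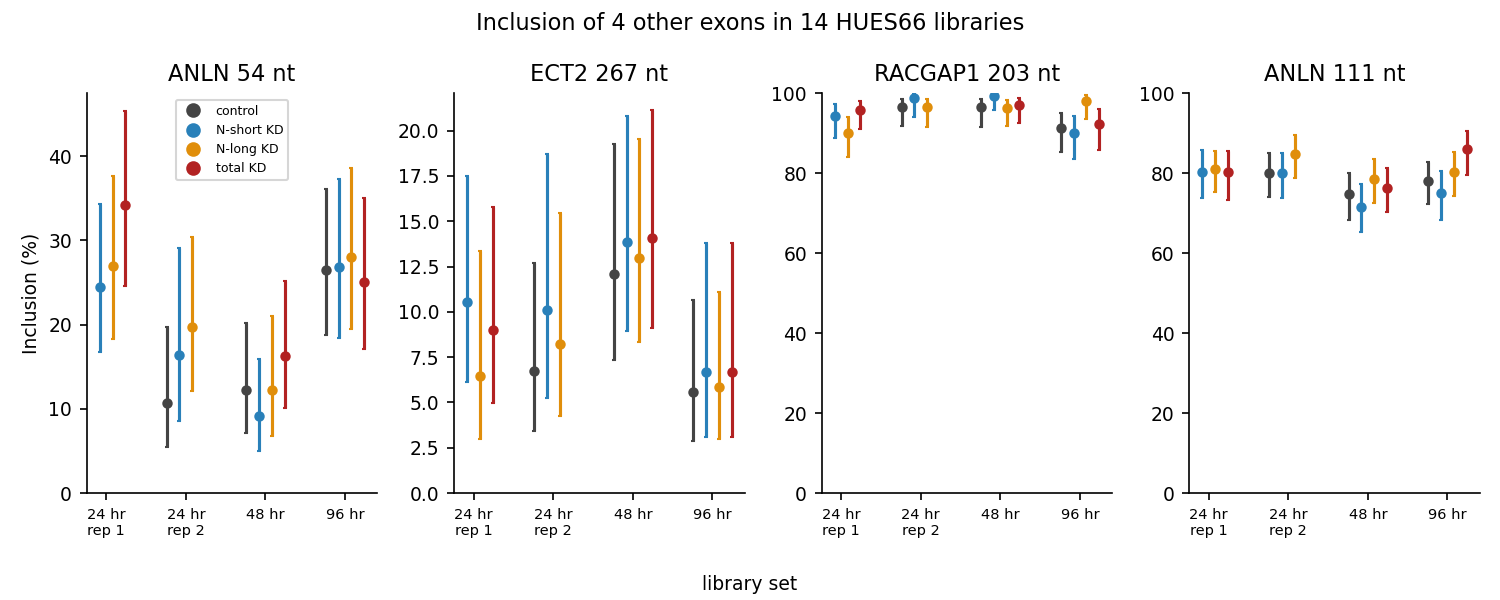
Inclusion in percent (vertical axis, scaled to each panel) of 4 exons in the 14 HUES66 libraries by library set (horizontal axis), with 95% Wilson intervals; colours mark the knockdown group. The 54 nt ANLN exon lies at 9.09% to 16.3% at 48 hr and 25% to 28.0% at 96 hr in all groups, and the 267 nt ECT2 exon moves the other way.

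The remaining tested exons passed in none of the 6 comparisons. The 111 nt and 133 nt exons of PRC1 were included in 93.9% to 100% and 92.2% to 98.8% of reads, and the 42 nt PRC1 exon in 0% to 12.9%. An exon of the untranslated first part of ECT2 with 3 alternative ends (123, 287 and 323 nt, which share 1 junction into the exon and are not independent) was included in 1.65% to 10.9%. CIT had 2 cassette candidates, both included in over 98% of reads, so neither was tested. Among the 15 untested candidates of the 5 genes, the largest difference between lines or fractions with at least 20 reads in each was 6.67 points.

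In the cell lines, inclusion of 3 exons differed by 20 points or more: ECT2 93 nt, ANLN 54 nt and PRC1 42 nt. The 93 nt ECT2 exon was included in 91.6% of reads in wild-type HUES66 (95% Wilson interval 88.6 to 93.9), 45.9% in HEK293 (37.7 to 54.3) and 35.6% in A375 (24.6 to 48.3), with 441, 135 and 59 reads. HUES66 did not overlap the other lines, while the HEK293 and A375 intervals overlapped. With 1 library per line there is no replicate check, and intervals cover counting error only. The wild-type libraries also come from different library series. The A375 series held no other line, so for A375 line and series cannot be told apart. HEK293 shared its series with the HUES66 libraries of 24 hr replicate 2. The control of that set was at 93.2% for ECT2 93 nt, 10.7% for ANLN 54 nt and 7.32% for PRC1 42 nt. The 54 nt ANLN exon was included in 23.2% of reads in wild-type HUES66, 12% in HEK293 and 1.41% in A375. The doxycycline-treated HUES66 controls ranged from 10.7% to 26.5% for this exon, so HEK293 lay inside the HUES66 range and A375 below it. The 42 nt PRC1 exon ran the other way, at 9.20% in wild-type HUES66, 26.5% in HEK293 and 42.1% in A375. That exon is joined mostly to 1 of 2 alternative donors, and the A375 value was 8.33% from the junction into the exon alone and 58.5% from the junction out of it. Of reads leaving the donor it mostly uses, 18.97% entered the exon in HUES66 (n = 58), 38.7% in HEK293 (n = 124) and 45.2% in A375 (n = 42), in the same order.

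Counting exons with 20 points or more and at least 20 reads in both lines, 2 of 12 were higher in HUES66 than A375 (ECT2 93 nt and ANLN 54 nt), beside 3.39% of all tested exons, and 1 of 12 lower (PRC1 42 nt), beside 3.52%. Between HUES66 and HEK293, 1 of 11 was higher in HUES66, beside 4.16%, and 0 of 11 higher in HEK293, beside 2.46%. Between HEK293 and A375 the count was 0 of 11 in each direction, beside 2.12% higher in HEK293 and 4.09% higher in A375. A share of 1 exon in 11 or 12 is too small a number for a comparison with these backgrounds.

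Of the 5 gene levels, ANLN alone passed in a comparison between knockdown groups; in bulk RNA, fewer cells that express a gene and less RNA per cell cannot be told apart. ANLN passed in total KD against control, with a log2 fold change of -0.14 (SE 0.04, edgeR adjusted p = 0.0352), and against N-long KD, with -0.14 (adjusted p = 0.0128), that is 91.0% and 90.7% of the compared level. Its levels in total KD were 251, 299 and 275 CPM at 24, 48 and 96 hr, against 342, 318 and 301 in the controls, where the 24 hr libraries belong to different sets, so the highest total KD value was just below the lowest control value. Leaving out any 1 library of the comparison with control ended the call (adjusted p = 0.0638 to 0.158). The call against N-long KD was lost without the total KD library of 24 hr (edgeR adjusted p = 0.0617) or 96 hr (0.0512) and without the N-long KD library of 24 hr replicate 1 (0.123) or 48 hr (0.0712). With time point in place of library set as the block, both calls were lost (adjusted p = 0.296 against control and 0.682 against N-long KD). PRC1 (log2 fold change -0.36), RACGAP1 (-0.11), ECT2 (-0.10) and CIT (-0.06) did not pass in total KD against control, with adjusted p-values of 0.103 to 0.612 in the edgeR fit. Without the 48 hr control library PRC1 was at -0.22, without the 96 hr control library ECT2 was at -0.06, and without the 96 hr total KD library CIT was at -0.02. With wild-type HUES66 added as a control, ECT2 (adjusted p = 0.0383) and PRC1 (adjusted p = 0.0265) passed as well. The 18 mitotic genes measured, all with reads in every library, summed to 5144 to 5595 CPM in total KD and 5674 to 6519 in the controls. The values 5144 and 6519 came from different 24 hr sets, replicate 1 and replicate 2, where N-short KD was at 5455 and 6373. Within sets, total KD was at 5554 against 5674 in the control at 48 hr and 5595 against 6068 at 96 hr. The part of these genes in the ANLN result was not tested.

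Counts of members called by edgeR were 1 of 5 for total KD against control, beside 2.28% of all genes, and 0 of 5 for N-short KD against control, beside 0.00747% (0 members with an unadjusted p under 0.05, and 0 by DESeq2). They were 0 of 5 for N-long KD against control, beside 0.0224%, and 0 of 5 for N-long KD against N-short KD, beside 0.0149%, again with 0 at an unadjusted p under 0.05 in each and 0 by DESeq2. Total KD against N-long KD had 1 of 5, beside 2.08%. Fitted log2 fold changes of the 5 genes against control lay between -0.03 and 0.02 for N-short KD and between -0.09 and 0.00 for N-long KD. Of the PRC1 reads, 86.4% fell on introns shared with a readthrough gene, which the test leaves out; its levels here count them. With those introns counted, an alternative chosen after seeing the data, its log2 fold change in total KD against control was -0.16 (edgeR adjusted p = 0.0558).

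**Figure D4:**
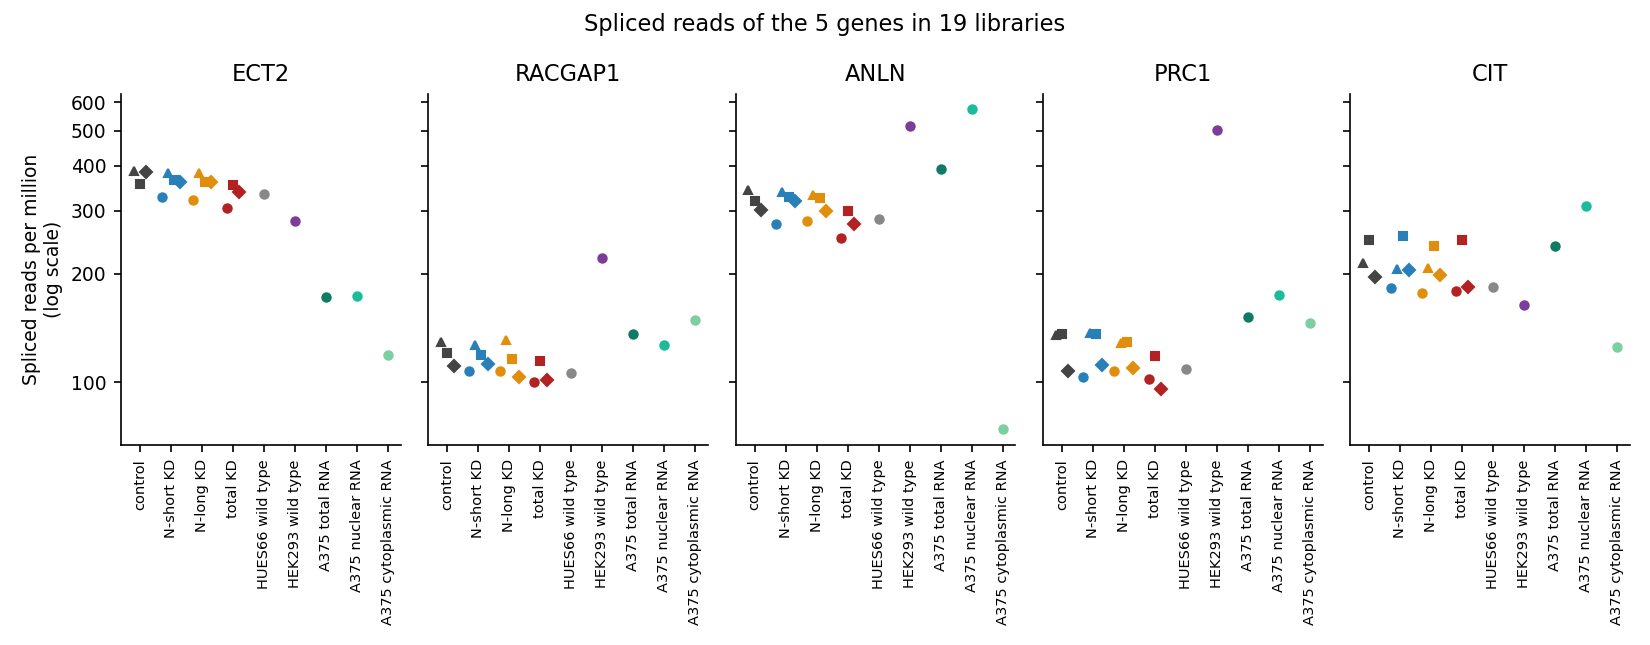
CPM of spliced reads (vertical axis, log scale) of the 5 genes in the 19 libraries by group (horizontal axis); points are libraries and shapes mark library sets as in the plot of the ECT2 exon. ANLN lies at 573 in A375 nuclear RNA and 74.2 in cytoplasmic RNA. Total KD lies below control without overlap for ECT2 and ANLN among the 5 genes, but only just. The highest total KD and lowest control values are 353 and 355 for ECT2, which did not pass, and 299 and 301 for ANLN.

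The 39 other cytokinesis genes, a list of central spindle, contractile ring and abscission genes, were all tested. In total KD against control 0 were higher, beside 1.04% of all genes, and 4 lower, beside 1.24%, with a median log2 fold change of -0.02 beside 0.00 over all genes. The 4 were KIF4A (a chromokinesin of the central spindle, -0.19, edgeR adjusted p = 0.00879), PDCD6IP (the abscission factor ALIX, -0.20, adjusted p = 0.0105), MYL12A (a myosin light chain, -0.20, adjusted p = 0.0228) and DIAPH1 (a formin, -0.13, adjusted p = 0.0445). None passed by edgeR for N-short KD or N-long KD against control (0 at an unadjusted p under 0.05 in each), where SEPT6 (0.15) and MYL12A (-0.09) had the smallest adjusted p. None passed for N-long KD against N-short KD, where 1 gene had an unadjusted p under 0.05 (NET1, 0.08). KIF4A (-0.17) and PDCD6IP (-0.16) were lower in total KD against N-long KD as well, 2 of 39 beside 1.08% of all genes (0 were higher, beside 0.993%); these comparisons share the total KD libraries. Beside the same shares of all genes, 0 of 18 mitotic genes were higher and 4 lower in total KD against control, and of 12 replication genes 1 was higher and 1 lower.

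Between 96 and 48 hr, 2 of 5 members passed, beside 59.6% of all genes. Time and library set cannot be told apart for genes either, and the p-values do not measure the spread between sets of the same time. CIT fell in all 4 groups, from 240 to 255 CPM at 48 hr to 183 to 204 at 96 hr, with no overlap (log2 fold change -0.29, SE 0.03, edgeR adjusted p = 1.56e-09). The 24 hr libraries had CIT at 177 to 215 CPM, below every 48 hr library, so its level did not follow time in one direction. PRC1 had a log2 fold change of -0.24 on its unshared introns (SE 0.09, edgeR adjusted p = 0.0220, DESeq2 adjusted p = 0.0708). Its call was lost without the control library of 48 hr (edgeR adjusted p = 0.181) or 96 hr (0.186) or the N-short KD library of 48 hr (0.0721). With all its introns counted, PRC1 went from 118 to 137 CPM at 48 hr to 96.0 to 112 at 96 hr. That was 78.4% to 84.7% of the 48 hr level in the 4 groups. The 24 hr libraries had PRC1 at 102 to 137 CPM. ECT2 (0.06), RACGAP1 (-0.08) and ANLN (-0.04) did not pass, with adjusted p-values of 0.0556 to 0.297; with library size in place of TMM, RACGAP1 (-0.14) and ANLN (-0.09) passed too and the ECT2 value was 0.00. ECT2 passed without the 48 hr total KD library (0.08, edgeR adjusted p = 0.0280), the 96 hr N-short KD library (0.08, adjusted p = 0.0451) or the 96 hr N-long KD library (0.08, adjusted p = 0.0475), while its CPM was lower at 96 hr in 3 of 4 groups. Of the 39 other cytokinesis genes 19 were higher at 96 hr, beside 29.5% of all genes, and 10 lower, beside 30%, with a median of 0.09 beside -0.01 over all genes. The 10 with the smallest adjusted p were, on the lower side, the non-muscle myosin heavy chains MYH9 (-0.41) and MYH14 (-0.80), the formin DIAPH2 (-0.62), the septin SEPT6 (-0.71) and the exchange factor NET1 (-0.34). On the higher side they were SPAST, the microtubule-severing spastin (0.47), the kinase ROCK2 (0.29), the exchange factor ARHGEF2 (0.40), DIAPH1 (0.27) and the mitotic kinase PLK1 (0.34).

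ECT2 gene level was most like that of CCDC88A, CENPF, TJP1, PAXBP1 and TOP2A over the 14 libraries (Pearson r of log2 CPM of 0.95 to 0.97, out of 10661 genes). Of the members, ANLN had r = 0.88 and ranked 31 of these, RACGAP1 r = 0.76, PRC1 r = 0.40 and CIT r = 0.36. The libraries share sets and knockdown groups.

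In A375, ANLN spliced reads were concentrated in the nuclear library. ANLN was at 573 CPM in nuclear RNA and 74.2 in cytoplasmic RNA, a ratio of 7.72 (95% exact interval 7.29 to 8.19), and total RNA lay between at 392. The ratio lay between 5.40 and 11.7 in the 23 introns with at least 50 reads. CIT was also higher in the nuclear library, at 309 against 125 (ratio 2.48), in 45 of 45 such introns. ECT2 was at 173 against 119 (ratio 1.45, interval 1.35 to 1.56), PRC1 at 175 against 146 (1.20) and RACGAP1 at 126 against 149 (0.85). The count 2-fold higher in nuclear RNA was 2 of 5 members, beside 22.7% of all genes, and 0 of 5 were 2-fold higher in the cytoplasm, beside 19.3%. The median ratio over all genes was 0.93, and 94.4% of genes had a lower ratio than ANLN. These ratios are relative to the spliced reads of each library, and there is 1 library per fraction.

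Inclusion was compared in the same fractions. The 93 nt ECT2 exon was included in 33.3% of nuclear reads (95% Wilson interval 20.2 to 49.7, n = 36) and 30.3% of cytoplasmic reads (22.7 to 39.0, n = 119). For 0 of 11 exons with enough reads did inclusion differ by 20 points in either direction, beside 2.18% higher in nuclear RNA and 1.29% higher in cytoplasmic RNA over all tested exons. The widest difference was that of the 203 nt RACGAP1 exon, 96.9% against 89.4% (7.45 points). The share of CIT reads that used the acceptor skipping the 45 nt stretch was 60.5% in nuclear RNA, 36.2% in cytoplasmic RNA and 23.4% in total RNA of A375, on 43, 58 and 47 reads, so the total lay outside the range of its fractions.

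Between the lines, PRC1 was higher in HEK293 than in the others, at 504 CPM against 152 in A375 (ratio 3.32) and 109 in HUES66. RACGAP1 was at 222 in HEK293 against 106 in HUES66 (HUES66 over HEK293 ratio 0.48), which upper quartile scaling moved to 0.52, short of 2-fold. ECT2 was at 334 in HUES66, 281 in HEK293 and 172 in A375. Members 2-fold higher were 0 of 5 in HUES66 over A375 (beside 22.7%) and 0 in A375 over HUES66 (beside 22.3%), although ECT2 reached 1.93 in HUES66 over A375 and 2.07 under upper quartile scaling. They were 0 of 5 in HUES66 over HEK293 (beside 20.1%), 2 of 5 in HEK293 over HUES66 (beside 20%), 1 of 5 in HEK293 over A375 (beside 18.8%) and 0 of 5 in A375 over HEK293 (beside 19.3%). Each of these counts rests on at most 2 genes, and for A375 line and library series cannot be told apart here either. The HUES66 control of 24 hr replicate 2, from the same series as HEK293, had PRC1 at 136 CPM and RACGAP1 at 129. HEK293 had 504 and 222.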

How the data were processed

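Libraries were ribosomal RNA-depleted total RNA, per the labels' protocols. The deposited junction tables hold raw counts of spliced reads per junction; the submitters' processing notes name STAR 2.7.1 and SAMtools 1.9. The authors' rMATS tables give inclusion differences (control minus knockdown, another unit, from -1 to 1), p-values and adjusted p-values, per the file headers; 69 per-library columns in them were not used.

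Junctions were matched to GENCODE 29 (GRCh38). Reads on introns of 1 gene name were summed per gene for tests; levels of the 5 members (CPM) use all their introns. Cassette exons were at most 1000 nt long, with inclusion reads taken as the rounded mean of the 2 inclusion junctions. The 14 doxycycline-treated libraries entered 1 edgeR 4.0.16 quasi-likelihood fit (R 4.3.3; TMM, filterByExpr for genes) with terms for library set and knockdown; exons had inclusion and skipping reads as paired columns. P-values were Benjamini-Hochberg adjusted over all exons or genes of a contrast, with a threshold of 0.05. DESeq2 1.42.0 and limma 3.58.1 (pseudocount 0.5 reads) were alternatives. The tests were also run on simulated data, which held no differences between library sets and so do not check the block. Single libraries carry 95% Wilson or exact intervals, which cover counting error only; a count of 0 allows 3. Same-set libraries deviated together (median residual r 0.56 in 18 pairs, -0.18 in 55 pairs of other sets and knockdowns), so the set is the block. Members and lists were chosen with earlier results of these data known.

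The rule for naming was all 5 genes, every tested exon, the 5 most similar exons and genes, and, per contrast, the cytokinesis gene with the smallest adjusted p and those that passed (at most 10). A motif search beside the exons was planned and was not run here; exon sequences were searched instead.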

Additional observations from a re-analysis of the deposited data

Results flagged for a closer look

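In N-short KD the 48 hr library lay apart from the other 3 for the 93 nt ECT2 exon: inclusion was 77.7% against 88.7% to 89.9%. In N-long KD the 48 hr library lay apart in the same way, at 61.0% against 79.5% to 81.3%. Each lay further from its group than a test for single extreme values in groups of 4 allows. The 4 libraries of a group differ in time and library set, so they are not replicates of 1 condition. Chance flags about 1 in 20 groups, and 36 groups were looked at, so some flags can be chance alone. The 48 hr library was also the lowest of its group in total KD and in the controls.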

How the results depend on the processing

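Calls on the 93 nt ECT2 exon kept their direction under every alternative run. With limma on log2 ratios in place of edgeR, the number of member exons called was 0 for N-long KD against control, for N-long KD against N-short KD and for total KD against N-long KD, where edgeR called 1 in each. Leaving out single libraries left 1 exon called in each of the 4 knockdown comparisons with a call and 0 in N-short KD against control, and 3 to 4 at 96 against 48 hr. For genes it left 0 called in total KD against control, 0 to 1 in total KD against N-long KD and 1 to 3 at 96 against 48 hr. Without the replicate block (time point alone in place of library set), 0 member genes were called in total KD against control and 0 in total KD against N-long KD; no other member count changed. For total KD against control, adding wild-type HUES66 as a control gave 3 member genes, and the 48 hr and 96 hr sets alone, chosen after seeing the data, gave 0, as they did for total KD against N-long KD. At 96 against 48 hr DESeq2 called 1 member gene and library sizes without TMM called 4. The cause was not tested. Spike-in scaling of the A375 fractions was not run because the nuclear library has 0 spike-in reads. Counting junctions shared with readthrough genes, also chosen after seeing the data, gave 3 member genes at 96 against 48 hr in place of 2 and a PRC1 log2 fold change of -0.16 in place of -0.36 in total KD against control. Over all features, limma called 24 exons in place of 90 for total KD against control, 1 in place of 38 for N-long KD against control, 2 in place of 28 for N-long KD against N-short KD and 0 in place of 34 for total KD against N-long KD. In the last 3 comparisons the fit without the block called 20, 15 and 19 exons. It called 62 genes in place of 305 for total KD against control and 40 in place of 278 for total KD against N-long KD. The 48 hr and 96 hr sets alone gave 25 exons for N-long KD against control, and 20 exons and 133 genes for total KD against N-long KD. Leaving out single libraries also moved these counts by over 1.5 times. Exons for N-long KD against control were 22 with N-long KD of 48 hr left out and 25 with the 48 hr control left out. Exons for N-long KD against N-short KD were 13 with N-short KD of 48 hr left out, and 17 and 15 with N-long KD of 48 and 96 hr left out. Exons for total KD against N-long KD were 13 with total KD of 48 hr left out and 19 with N-long KD of 24 hr replicate 1 left out; genes were 149 and 164 in these fits, and 161 with N-long KD of 48 hr left out. Genes for total KD against control were 162 and 190 with the 96 and 48 hr controls left out and 181 with total KD of 48 hr left out. Depth limits the ECT2 93 nt value of A375 nuclear RNA, which rests on 36 reads.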

Other observations

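A few alternative splice sites of the 5 genes were not tested and are given as values. ECT2 has 2 donors 87 nt apart, and the upstream one took 5.22% of the reads of the pair in the 14 HUES66 libraries pooled, from 1.02% to 11.6% per library. CIT has 2 acceptors 3 nt apart, split at 42.3% to the one farther downstream, from 30.2% to 57.1% per library on 31 to 65 reads. Its 2 acceptors 45 nt apart were used about equally in HUES66: the one that skips the 45 nt took 38.9% to 43.5% in total KD, 42.9% to 63.0% in the controls, 45.5% to 63.1% in N-short KD and 47.1% to 54.8% in N-long KD. HEK293 was at 31.0% and wild-type HUES66 at 46.7%. No test was made of these shares.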
